A study of Homo sapiens with 8 samples.

Results

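Mature microRNAs (miRNAs) were compared between HCT116 cells rescued with DICER carrying the substitution R1003Q, an arginine-to-glutamine change, and HCT116 cells rescued with wild-type DICER (WT). HCT116 is an established human colorectal carcinoma cell line. The comparison was defined by the sample titles alone and took 4 of the 8 libraries of the series, 2 labelled R1003Q and 2 labelled WT. All groups share the cell line, and the other 4 libraries carry DICER R1855L or R821H. The sources used here do not say how DICER was delivered, whether the cells kept any DICER of their own, or whether a group was 1 clone. The tables count mature miRNAs, so neither the level of DICER nor the substitution itself was checked. Across the 4 libraries 1672 miRNA names had at least 1 read, of 1818 in the whole series.

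In the cytoplasm, DICER removes the loop of a precursor hairpin with its paired RNase III domains and leaves a duplex with a 5p and a 3p strand. One strand, the guide, is loaded into an Argonaute protein, where its seed (bases 2 to 8) pairs with target mRNAs, while the other, the passenger, is mostly degraded. The let-7 family is the best known group of growth-restraining miRNAs. Precursors of its group II end in a short overhang that is first extended by a uridine before DICER cuts them.

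The sequences below are a selection from the 10 names lowest in R1003Q relative to WT, led by the let-7 family. A selection from the 10 highest follows. Left out despite having a sequence were miR-340-3p of the lowest and miR-3187-3p, miR-320c and miR-23a-5p of the highest. The selection therefore does not stand for the full sets, whose median GC content is given further below. The sequences printed here differ plainly in base composition. They are RefSeq mature miRNAs (GRCh38.p14), written 5′ to 3′ with the seed in capitals.
miR-98-5p: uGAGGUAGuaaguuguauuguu
let-7f-5p: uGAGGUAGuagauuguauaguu
let-7d-5p: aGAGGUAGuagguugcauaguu
let-7i-5p: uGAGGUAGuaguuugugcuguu
miR-98-3p: cUAUACAAcuuacuacuuuccc
let-7f-1-3p: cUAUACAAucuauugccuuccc
miR-590-3p: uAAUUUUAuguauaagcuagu
miR-374a-3p: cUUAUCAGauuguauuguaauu
miR-4497: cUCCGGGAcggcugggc
miR-3648: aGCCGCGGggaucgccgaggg
miR-6724-5p: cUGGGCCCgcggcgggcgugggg
miR-663a: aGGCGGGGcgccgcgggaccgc
miR-663b: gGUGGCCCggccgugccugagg
The 4 let-7 guides share the seed GAGGUAG, and both passenger strands share UAUACAA, while no 2 of the last 5 share a seed.

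Library totals were 1143373 and 675934 reads in R1003Q and 1137858 and 4269231 reads in WT (replicates 1 and 2). WT replicate 2 was therefore the only deep library of the 4. Before any group result, this library stood apart from its own replicate. Over tested names the median absolute log2 difference was 0.248 between the R1003Q libraries, and 5.92% of names differed by more than 2-fold. Between the WT libraries it was 0.461 (18.4% of names), and between R1003Q and WT replicate 1 it was 0.325 and 0.326 (7.52% and 7.68%). Against WT replicate 2 the R1003Q libraries differed by 0.475 and 0.430. The R1003Q mean lay nearer to WT replicate 1 for 390 of 625 names (62.4%). Depth and group cannot be fully told apart, because both R1003Q libraries were shallow. Values without WT replicate 2 are therefore given beside the main results. The colorectal epithelial markers were uneven. Among them miR-31-5p was at 60426 and 30128 reads in R1003Q and 60393 and 176625 in WT. miR-200b-3p had 1114 and 809 reads in R1003Q and 1444 and 5804 in WT. miR-200c-3p had only 26 and 18 reads in R1003Q and 24 and 167 in WT. miR-215-5p was near 0, with 3 and 5 reads in R1003Q and 5 and 5 in WT. The muscle markers were near 0: miR-206 and miR-208a-3p had 0 reads in all 4 libraries, miR-1-3p at most 2.5, and miR-133a-3p 11 and 3 reads in R1003Q and 10 and 12 in WT. The blood markers were mixed: miR-155-5p had 0 reads in all 4 libraries, whereas miR-142-3p was at 333 and 378 CPM in R1003Q and 368 and 334 CPM in WT. The neuron marker miR-128-3p was at 1139 and 893 CPM in R1003Q and 1411 and 1194 CPM in WT. Its list mate miR-124-3p had at most 1.67 reads. The fibroblast marker miR-145-5p was at 584 and 645 CPM in R1003Q and 596 and 670 CPM in WT. Its list mate miR-214-3p had at most 13 reads. The liver marker miR-122-5p was at 95.7 and 109 CPM in R1003Q and 86.6 and 67.4 CPM in WT.

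The levels of most miRNAs in R1003Q lay near those in WT, and no name passed the test. edgeR's quasi-likelihood test with Benjamini-Hochberg adjustment called 0 of 625 tested names (0%) at an adjusted p under 0.05. An unadjusted p under 0.05 was reached by 31 names (4.96%), 10 higher and 21 lower in R1003Q. By DESeq2 the count was also 0, and 26 names had an unadjusted p under 0.05. The smallest adjusted p of edgeR was 0.486. The median log2 fold change of R1003Q over WT was 0.06, with quartiles of -0.28 and 0.34. The fitted difference exceeded 2-fold for 29 names lower and 17 higher in R1003Q.

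The precision differed widely between names, and a missed threshold does not show equal levels. The 95% interval of the fold change lay inside 2-fold in either direction for 173 of the 625 names. Among the 92 names at 1000 CPM (counts relative to the library total, scaled by TMM) or more it did so for 43. In data simulated from these means and library sizes, edgeR recovered 24% of 2-fold and 73% of 4-fold changes in this comparison over 625 names. Nothing in the labels states that replicates were separate cultures, and the p-values therefore measure a spread between libraries that may be technical.

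Detection also followed depth. A read was found in both groups for 1270 names, in R1003Q only for 77 and in WT only for 325. No name found in R1003Q only had more than 4 reads in sum. The highest sum of a WT-only name was 30 reads, for miR-3138, named after its values were seen. A count of 0 allows 3 reads, which is 2.62 and 4.44 CPM in the R1003Q libraries and 2.64 and 0.703 CPM in the WT libraries.

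The most abundant miRNAs were largely the same names in both groups. Of the 10 most abundant names in each group 8 were shared, and of the 50 most abundant 47 were shared. miR-21-5p, an oncogenic miRNA that represses the tumour suppressor PDCD4, was at 340950 and 320204 CPM in R1003Q and 248856 and 420618 CPM in WT. The R1003Q libraries lay between the WT libraries, and the log2 fold change was -0.02 (SE 0.41). miR-222-3p, which represses the cell-cycle inhibitor p27, was at 104483 and 87923 CPM in R1003Q and 81883 and 76740 CPM in WT. Both R1003Q values were above both WT values, with a log2 fold change of 0.28 (SE 0.25, edgeR adjusted p = 0.881), or 0.13 without WT replicate 2. miR-31-5p, a miRNA often high in colorectal cancer, was at 54025 and 42835 CPM in R1003Q and 45871 and 45941 CPM in WT, so the groups overlapped. miR-100-5p, which represses MTOR, was at 19191 and 19072 CPM in R1003Q and 13758 and 13435 CPM in WT (log2 0.49, SE 0.33). The groups of miR-100-5p did not overlap. The remaining members of the WT top 10 were miR-221-3p, miR-27a-3p, miR-16-5p, miR-24-3p, miR-29a-3p and miR-10a-5p. All 10 had log2 fold changes between -0.49 and 0.49, and 7 of the 10 had an interval inside 2-fold. The order within the group was not fixed, since miR-100-5p ranked 5 in R1003Q and 8 in WT, and miR-16-5p ranked 11 in R1003Q and 6 in WT.

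**Figure D1:**
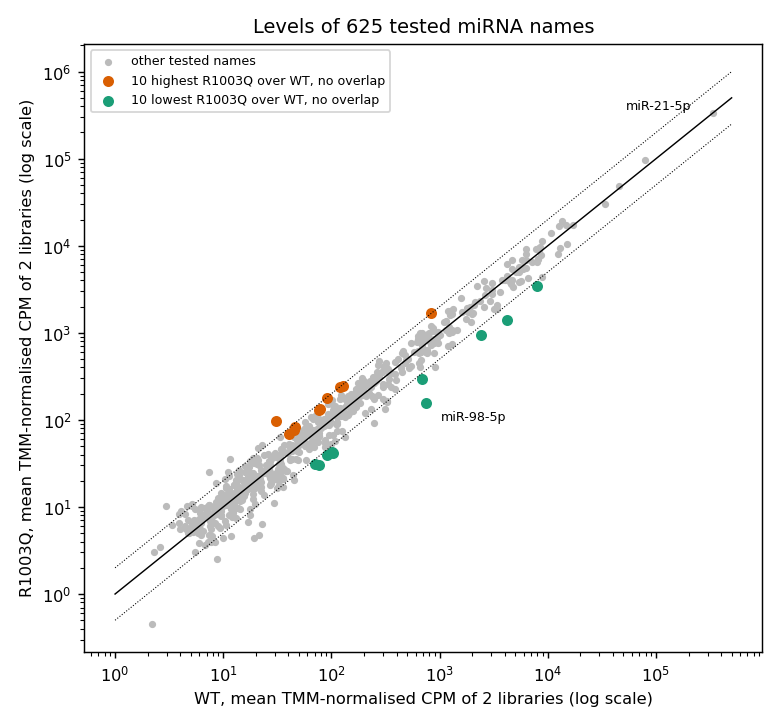
Mean level of each of the 625 tested miRNA names in R1003Q (vertical axis) and WT (horizontal axis), in TMM-normalised CPM on log scales, with the line of equal levels solid and the 2-fold lines dotted. Most points lie between the dotted lines, and the named extremes, 10 lower in green and 10 higher in orange, lie near or outside them.

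The names farthest below WT were led by let-7 miRNAs. The description takes names with a mean of at least 50 CPM whose R1003Q libraries both lay on one side of both WT libraries, whether or not they passed the test. Over all tested names 111 (17.8%) were lower without overlap and 143 (22.9%) higher without overlap. miR-98-5p, a let-7 family guide, was at 135 and 179 CPM in R1003Q and 320 and 1192 CPM in WT. Both R1003Q libraries were low, but the WT libraries differed from each other more than WT replicate 1 did from R1003Q. The log2 fold change was -2.27 (SE 0.80, edgeR adjusted p = 0.857), and without WT replicate 2 it was -1.13.

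Its passenger strand behaved more evenly. miR-98-3p was at 29.5 and 31.3 CPM in R1003Q and 81.3 and 72.8 CPM in WT, and no library had fewer than 22 reads. The groups did not overlap, and the R1003Q mean of 30.4 ± 1.25 CPM stood below the WT mean of 77.1 ± 5.97 CPM (SD, n = 2 libraries each). With 33 and 22 reads in R1003Q, counting error alone can exceed that SD. The closeness of the R1003Q libraries therefore does not measure reproducibility. The log2 fold change was -1.34 (SE 0.27, 95% interval -1.96 to -0.72), and miR-98-3p had the smallest p of all names (unadjusted 0.00119, adjusted 0.486 by edgeR). Without WT replicate 2 the log2 fold change was -1.52.

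Both strands of miR-98 were called when the depth class of the library was added to the model. In that fit they were the 2 called names of 625 (0.32%), at log2 -1.17 (SE 0.24) for miR-98-5p and -1.40 (SE 0.30) for miR-98-3p, each with an edgeR adjusted p of 0.0173. The depth term was estimated from the WT, R1855L and R821H libraries, since R1003Q had none in the deep class. No other setting tried called either strand.

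MIR98 lies on the minus strand of chromosome X at 53556223 to 53556341 in an intron of HUWE1 (GENCODE 29, GRCh38), and MIRLET7F2 lies 850 bases away in the same intron at 53557192 to 53557274. The passenger strand of that neighbour, let-7f-2-3p, was at 189 and 188 CPM in R1003Q and 210 and 157 CPM in WT, so its groups overlapped. The log2 ratio of miR-98-3p to let-7f-2-3p, which does not move with library scaling, was -2.68 and -2.58 in R1003Q and -1.37 and -1.11 in WT. This ratio was lower in both R1003Q libraries than in both WT libraries, by 1.39 log2 units on average. With 2 libraries against 2, the smallest p an exact two-sided permutation test can give is 0.333.

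The RefSeq hairpin of MIR98 (GRCh38.p14, chrX:53556223-53556341, minus strand) is shown because both of its strands, in capitals, were low in R1003Q. The strands lie 36 bases apart.
MIR98: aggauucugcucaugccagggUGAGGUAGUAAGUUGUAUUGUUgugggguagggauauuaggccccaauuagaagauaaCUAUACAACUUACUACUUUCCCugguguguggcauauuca

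For several other let-7 guides the difference from WT was much smaller without WT replicate 2. let-7f-5p was at 1347 and 1442 CPM in R1003Q and 1675 and 6669 CPM in WT. let-7i-5p was at 3391 and 3573 CPM in R1003Q and 4126 and 11598 CPM in WT. In both cases WT replicate 1 stood just above the R1003Q libraries and WT replicate 2 far above them. Their log2 fold changes were -1.58 (SE 0.87) and -1.18 (SE 0.64), and without WT replicate 2 they were -0.36 and -0.34. let-7d-5p was at 866 and 1005 CPM in R1003Q and 1503 and 3271 CPM in WT, with a log2 fold change of -1.35 (SE 0.51) and of -0.78 without WT replicate 2.

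Of the 9 tested let-7 guides 8 had a log2 fold change below 0, against 273 of all 625 names (43.7%). Lower without overlap were 5 of the 9, against 17.8% of all names, and 0 were called. The median was -1.14, against 0.06 over all tested names, and without WT replicate 2 it was -0.31, with 7 of 9 below 0. With the depth class term it was -0.15. Against the same WT libraries the median of these guides was also below 0 in R1855L (-0.60) and in R821H (-0.81). Low let-7 guides relative to WT were therefore not particular to R1003Q. All 6 group II guides were below 0 in R1003Q, with a median of -1.26 (-0.85 in R1855L and -0.82 in R821H). Without WT replicate 2 the R1003Q median was -0.35 and 5 of the 6 were below 0, let-7g-5p being at 0.16. The 2 group I guides were let-7e-5p, at 360 and 456 CPM in R1003Q and 381 and 1418 CPM in WT, and let-7c-5p, at 160 and 115 CPM in R1003Q and 160 and 79.3 CPM in WT. Both group I guides overlapped between the groups. Near-identical let-7 members can share reads, and the split between them is uncertain.

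The let-7 passenger strands depended less on that library. Of 10 tested, 7 were below 0, against 43.7% of all names, and 5 were lower without overlap, against 17.8% of all names. The median was -0.30, or -0.43 without WT replicate 2. let-7f-1-3p was at 34.0 and 48.3 CPM in R1003Q and 76.7 and 132 CPM in WT (log2 -1.36, SE 0.45). let-7i-3p was at 508 and 455 CPM in R1003Q and 776 and 556 CPM in WT (log2 -0.47, SE 0.32, or -0.79 without WT replicate 2). let-7a-3p was at 394 and 431 CPM in R1003Q and 539 and 555 CPM in WT. All 3 were lower in both R1003Q libraries, while let-7a-2-3p, let-7e-3p, let-7d-3p, let-7f-2-3p and let-7g-3p overlapped.

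**Figure D2:**
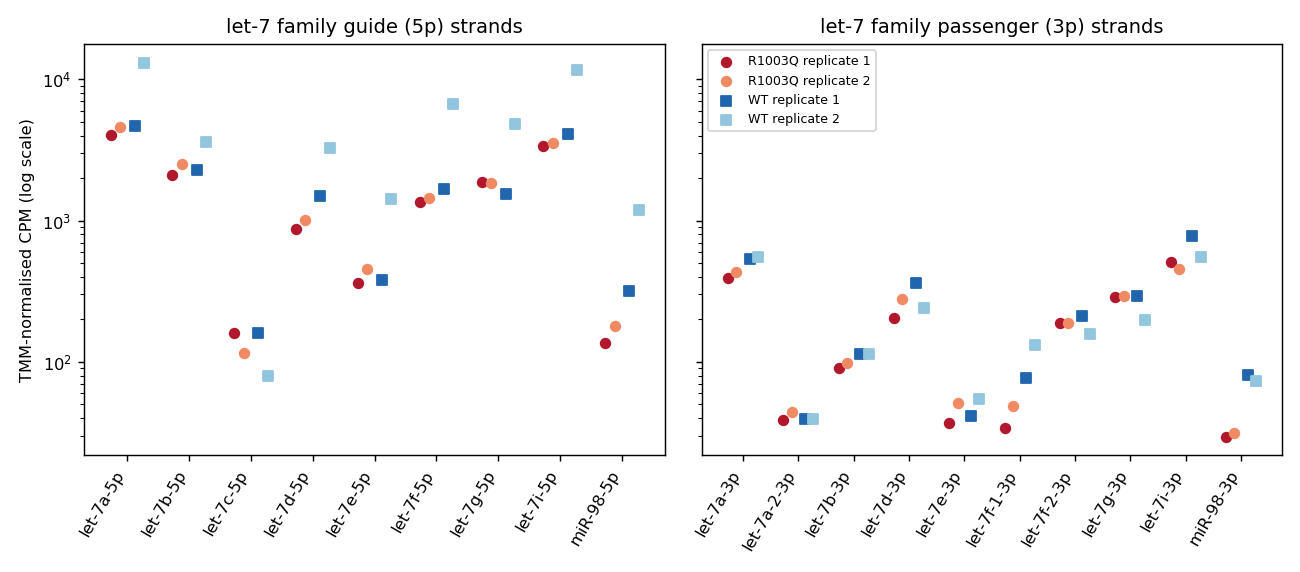
Level of each tested let-7 guide strand (left) and passenger strand (right) in every library, in TMM-normalised CPM on a log scale, R1003Q as circles and WT as squares. WT replicate 2 lies above the other libraries for 8 of the 9 guides, whereas for miR-98-3p both WT libraries lie together above both R1003Q libraries.

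The other 4 of the 10 lowest names were all 3p strands. miR-590-3p was at 220 and 368 CPM in R1003Q and 478 and 883 CPM in WT (log2 -1.21, SE 0.49). miR-548d-3p was at 44.7 and 41.2 CPM in R1003Q and 80.5 and 123 CPM in WT (log2 -1.24, SE 0.33). miR-374a-3p was at 32.2 and 29.9 CPM in R1003Q and 41.8 and 99.6 CPM in WT. In each case WT replicate 2 was the highest library. miR-340-3p had a log2 fold change of -1.18 (SE 0.43). Across the 10 lowest names the log2 fold change without WT replicate 2 ran from -1.52 to -0.34. The rule for these names required both R1003Q libraries to lie below both WT libraries. Their direction was therefore set by the choice, and only the size of the change is informative.

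The 10 highest names were mostly GC-rich and of low to moderate level. The counts alone do not show whether reads under these names came from hairpins cut by DICER, which was not tested. miR-4497 was at 84.9 and 111 CPM in R1003Q and 56.2 and 5.46 CPM in WT (log2 1.74, SE 1.36). miR-6724-5p, annotated in more than 1 copy on chromosome 21, was at 1891 and 1454 CPM in R1003Q and 1278 and 397 CPM in WT (log2 1.00, SE 0.73). WT replicate 2 was the lowest library for both. miR-3648 was at 240 and 235 CPM in R1003Q and 155 and 82.7 CPM in WT (log2 1.01, SE 0.61). miR-3687, miR-663a, miR-663b, miR-597-5p, miR-3187-3p, miR-320c and miR-23a-5p had log2 fold changes from 0.76 to 0.96. With the depth class term miR-320c was at 0.01. Against the same WT libraries miR-4497 was at log2 1.52 in R1855L and 1.13 in R821H, and miR-663a at 1.32 and 0.72. Alone of the 10, miR-320c was below 0 in R1855L, at -0.99, and it was at 1.04 in R821H. High values relative to WT were therefore not particular to R1003Q. Without WT replicate 2 the 10 highest names ranged from 0.29 to 0.70, and the rule of no overlap set this direction too. WT replicate 2 was below WT replicate 1 for all 10 of the highest names and above it for 9 of the 10 lowest.

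**Figure D3:**
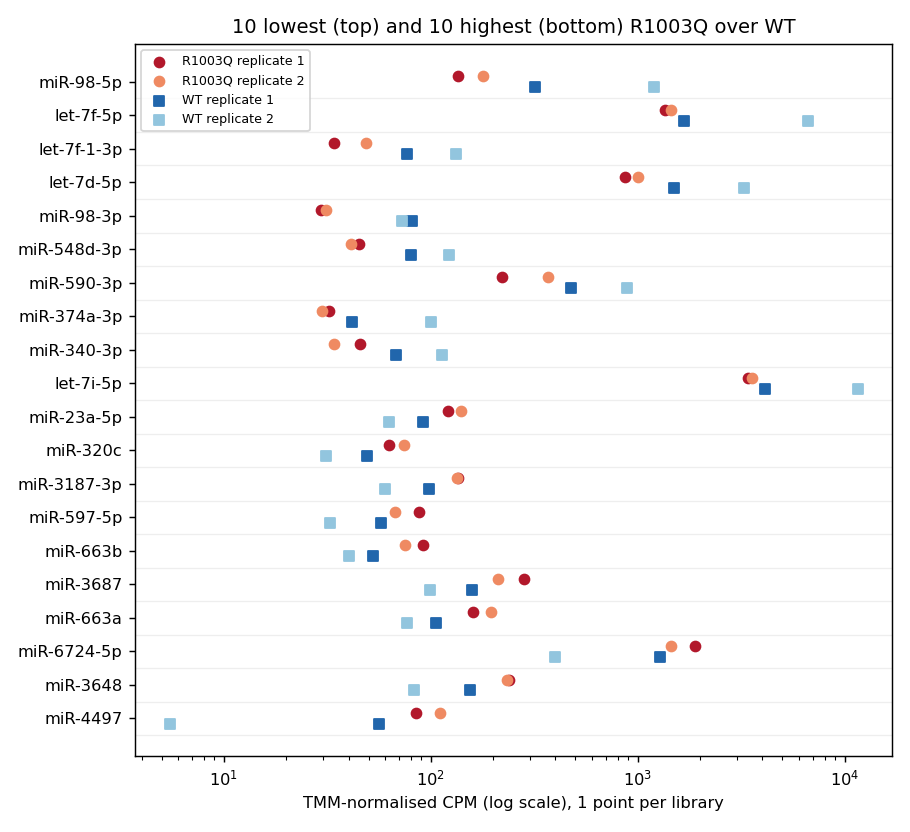
Level of the 10 lowest and 10 highest names in every library, in TMM-normalised CPM on a log scale, R1003Q as circles and WT as squares. By construction the groups do not overlap, and in most rows WT replicate 2 is the library farthest from R1003Q, with miR-98-3p as the exception among the lowest.

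Base composition separated these sets. The median GC content of the mature sequence was 36.4% over the 9 of the 10 lowest names with a RefSeq sequence and 81.4% over the 8 of the 10 highest with one, against 50% over the 542 tested names that matched (86.7% of those tested). Matched names were ranked by GC and split into 4 bins. In the bin of lowest GC (151 names) the median log2 fold change of R1003Q over WT was -0.28, and 113 names were below 0. In the bin of highest GC (132 names) it was 0.30, and 31 names were below 0. The same bins differed within WT: replicate 2 minus replicate 1 had medians of 0.55 and -0.49. Without WT replicate 2 the R1003Q medians were -0.12 and -0.06, so the order along GC was not seen. Between the R1003Q libraries, replicate 2 minus replicate 1, they were 0.05 and -0.03.

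**Figure D4:**
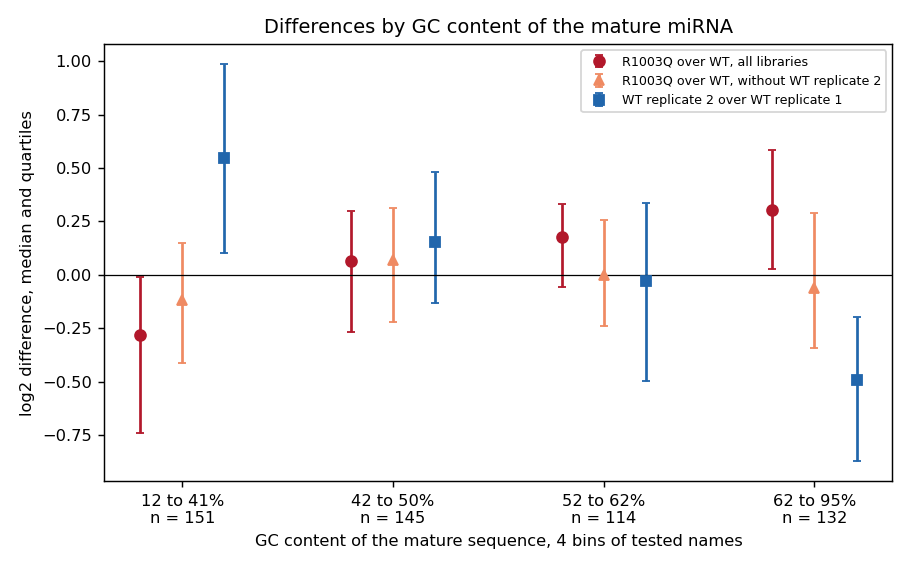
Median log2 difference, with bars from the lower to the upper quartile, of tested names in 4 bins of mature-sequence GC content, for R1003Q over WT, for the same without WT replicate 2, and for WT replicate 2 over WT replicate 1. The R1003Q medians climb from -0.28 to 0.30 along GC, those between the WT replicates run the other way, and those without WT replicate 2 stay between -0.12 and 0.07.

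A few more names whose groups did not overlap and whose unadjusted p was under 0.05 were picked after their values were seen. They were not the 4 of smallest p: miR-1304-5p, for example, had an edgeR unadjusted p of 0.0156. miR-185-5p, a miRNA encoded in an intron of TANGO2, was at 409 and 404 CPM in R1003Q and 648 and 670 CPM in WT (log2 -0.70, SE 0.19, edgeR unadjusted p = 0.00793, adjusted 0.857). miR-6886-5p was at 4.47 and 4.27 CPM in R1003Q and 19.7 and 18.7 CPM in WT, from 5 and 3 reads in R1003Q and 26 and 72 in WT. Both names were lower in every R1003Q library. In the opposite direction miR-589-3p was at 17.9 and 24.2 CPM in R1003Q and 9.87 and 10.7 CPM in WT (log2 1.00, SE 0.34). miR-25-3p, of the cluster in MCM7, was at 3954 and 3630 CPM in R1003Q and 5539 and 5386 CPM in WT (edgeR unadjusted p = 0.0461). None of these 4 passed adjustment between R1003Q and WT. Against the same WT libraries the log2 fold change of miR-589-3p was 1.62 in R1855L and 1.24 in R821H. For miR-185-5p it was -1.70 in R1855L and -0.996 in R821H, so neither difference was particular to R1003Q.

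Other families had smaller medians. The 5 miR-200 family members, which hold epithelial identity by repressing ZEB factors, had a median of -0.28, or -0.13 without WT replicate 2, with 4 below 0. miR-200b-3p, the most abundant, was at 996 and 1150 CPM in R1003Q and 1097 and 1510 CPM in WT. The miR-17 family, growth-promoting targets of MYC, had a median of -0.37 over 5 names, or 0.05 without WT replicate 2. The miR-29 family, repressors of collagens and DNA methyltransferases, had a median of -0.48 over 3 names, or -0.19 without WT replicate 2. The miR-15/16 family, repressors of BCL2 and cyclins, had a median of -0.27 over 7 names, or 0.07 without WT replicate 2.

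Some families lay above 0. In the family of miR-99, miR-100 and miR-125, 4 of 5 names were above 0 and 3 were higher without overlap (22.9% of all names were), with a median of 0.49, or 0.53 without WT replicate 2. miR-125b-5p, which represses the pro-apoptotic BAK1, was at 1905 and 1673 CPM in R1003Q and 1161 and 1338 CPM in WT. Summed over its tested members, the seed ACCCGUA of miR-99 and miR-100 was at 21993 and 21905 CPM in R1003Q and 17622 and 15672 CPM in WT. All 5 miR-30 names were above 0, with a median of 0.12, or 0.20 without WT replicate 2 and -0.03 without WT replicate 1. The miR-23/27/24 clusters had a median of -0.04, or -0.19 without WT replicate 2.

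Hairpins that bypass Drosha or DICER were described in the same way. The 11 tested mirtron names, whose hairpins are made by splicing, had a median of 0.02, or -0.32 without WT replicate 2. Of them 2 were lower and 2 higher without overlap, near the shares of 17.8% and 22.9% over all names. miR-877-5p, their most abundant, was at 177 and 229 CPM in R1003Q and 204 and 210 CPM in WT. The 4 tested names of capped hairpins, which form from transcript ends without Drosha, were all higher without overlap, against 22.9% of all names, with a median of 0.64, or 0.12 without WT replicate 2. miR-484, the most abundant of them, was at 1260 and 1375 CPM in R1003Q and 1175 and 1039 CPM in WT (log2 0.25, SE 0.35, or 0.07 without WT replicate 2). miR-451a, which Argonaute 2 cuts without DICER, was at 129 and 111 CPM in R1003Q and 151 and 254 CPM in WT (log2 -0.76, SE 0.48, or -0.43 without WT replicate 2). The 10 tested names derived from snoRNAs, whose reads may include snoRNA fragments, had a median of 0.50, or 0.30 without WT replicate 2.

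Where the strands of a hairpin were set against each other, no ratio passed the test either. The measure was the log2 ratio of 5p to 3p reads, 0.5 being added to each, in 174 hairpins whose strands both had 80 reads or more over the 8 libraries. limma called 0 of 174 (0%), and 10 (5.75%) had an unadjusted p under 0.05; the smallest adjusted p was 0.761. Both R1003Q libraries lay nearer to 5p than both WT libraries in 48 hairpins (27.6%) and nearer to 3p in 18 (10.3%). The median change was 0.06. In simulated data of this comparison over 174 pairs limma recovered 35% of 4-fold ratio changes.

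miR-92b had the smallest p among the named ratios (limma unadjusted p = 0.00753). Its log2 ratio was -3.22 and -3.27 in R1003Q and -4.42 and -4.54 in WT, so the 3p guide dominated everywhere and less so in R1003Q. The change was 1.24 (SE 0.36, limma adjusted p = 0.761), and it was 1.18 without WT replicate 2. miR-92b-5p, the minor strand, had 70 and 45 reads in R1003Q and 50 and 112 reads in WT. By level, the log2 fold change was 0.92 (SE 0.34) for miR-92b-5p and -0.31 (SE 0.29) for miR-92b-3p, the second being -0.54 without WT replicate 2.

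For miR-185 the ratio lay nearer to the 3p strand in R1003Q. The log2 ratio was 2.68 and 2.68 in R1003Q and 3.66 and 4.06 in WT, a change of -1.18 (SE 0.39), or -0.98 without WT replicate 2. The groups did not overlap. miR-140, a miRNA of cartilage and other tissues encoded in an intron of WWP2, had log2 ratios of -2.75 and -2.74 in R1003Q and -1.996 and -1.65 in WT (change -0.92, SE 0.32). miR-590 had log2 ratios of 2.27 and 1.57 in R1003Q and 0.74 and 1.26 in WT (change 0.92, SE 0.48, or 0.57 without R1003Q replicate 1). With the depth class term the limma adjusted p was 0.0584 for both miR-92b and miR-590.

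The RefSeq hairpins (GRCh38.p14) of miR-92b, miR-185 and miR-590 show the strands compared, in capitals with the 5p strand first. MIR92B lies at chr1:155195177-155195272 on the plus strand, MIR185 at chr22:20033139-20033220 on the plus strand in an intron of TANGO2, and MIR590 at chr7:74191198-74191294 on the plus strand in an intron of EIF4H.
MIR92B: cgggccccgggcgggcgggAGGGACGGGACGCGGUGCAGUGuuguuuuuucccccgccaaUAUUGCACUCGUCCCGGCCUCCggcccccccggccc
MIR185: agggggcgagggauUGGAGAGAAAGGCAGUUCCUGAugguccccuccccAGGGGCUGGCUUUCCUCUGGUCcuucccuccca
MIR590: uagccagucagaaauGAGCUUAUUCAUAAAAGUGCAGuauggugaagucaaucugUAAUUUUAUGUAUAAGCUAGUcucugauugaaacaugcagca

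The remaining ratios named by size were miR-556, miR-548d, miR-365a and miR-101 toward 5p, with changes of 1.49, 1.21, 1.13 and 1.11, and miR-188, miR-5008 and miR-324 toward 3p, with changes of -1.31 to -0.91. Single WT libraries moved several of them: without WT replicate 1 the change was 0.83 for miR-556, -0.59 for miR-188 and -0.40 for miR-5008. Without WT replicate 2 it was 2.15 for miR-556, 0.74 for miR-101, -2.03 for miR-188 and -1.60 for miR-5008. miR-556 had 34 and 30 5p reads in R1003Q and 17 and 95 in WT, and its ratio was -0.20 and 0.32 in R1003Q and -2.09 and -0.77 in WT. The dominant strand differed between the groups in all 4 libraries for 1 hairpin, miR-574, whose log2 ratio was 0.60 and 0.46 in R1003Q and -0.19 and -0.01 in WT (limma adjusted p = 0.822). Its values crossed the point of equal strands by little.

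**Figure D5:**
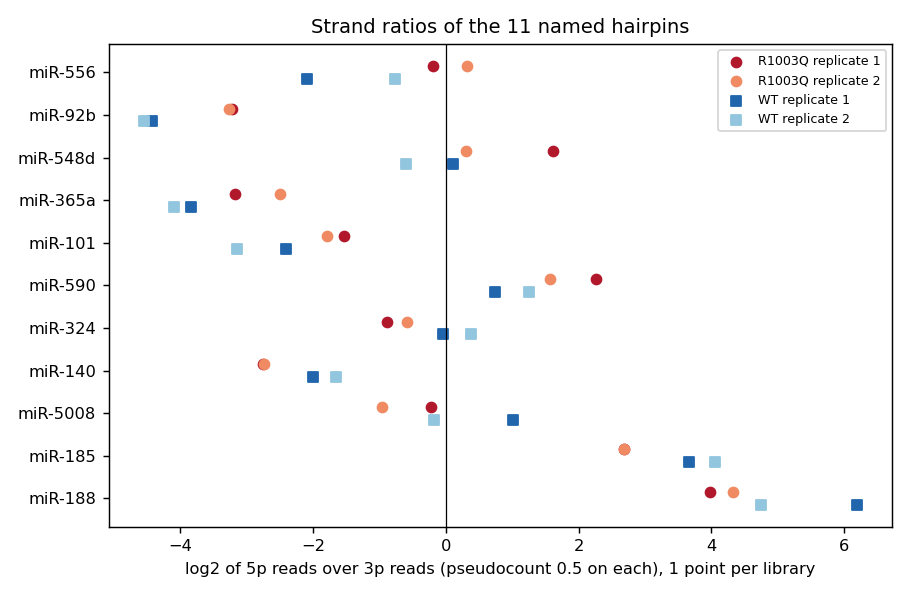
Log2 ratio of 5p over 3p reads (0.5 added to each) of the 11 named hairpins in every library, R1003Q as circles and WT as squares, with the vertical line at equal reads of both strands. The groups do not overlap in any row, which is by construction for all but miR-590. The points of miR-92b, miR-185 and miR-140 lie close together within R1003Q.

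Set against the other substitutions, R1003Q differed from R1855L and not detectably from R821H. edgeR called 23 of 625 names (3.68%) between R1003Q and R1855L, all higher in R1003Q. Of these 23 names, 22 were also called between R1855L and WT, a comparison that shares the R1855L libraries. Between R1003Q and WT 0 names were called, so the list does not show gains of R1003Q over WT. miR-484 was at 1317 ± 81.4 CPM in R1003Q and 34.2 ± 19.2 CPM in R1855L (SD, n = 2 libraries each), a log2 fold change of 5.36 (SE 0.44, edgeR adjusted p = 0.00157). The log2 fold change was 4.05 (SE 0.35) for miR-331-3p, 3.08 (SE 0.50) for miR-615-3p, 2.79 (SE 0.35) for miR-375 and 2.74 (SE 0.35) for miR-3200-3p. The smallest called differences were those of miR-185-5p (1.00, SE 0.20), miR-23b-3p, miR-345-5p, miR-128-3p and miR-455-3p. The comparisons of R1003Q and of R1855L with WT share the WT libraries, and for miR-484 their log2 fold changes were 0.25 and -5.11. For miR-222-3p they were 0.28 in R1003Q and -2.16 in R1855L, and for miR-185-5p -0.70 in R1003Q and -1.70 in R1855L. The count of 23 fell to 2 without R1003Q replicate 1, to 6 without R1003Q replicate 2 and to 4 without R1855L replicate 1.

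Between R1003Q and R821H edgeR called 0 of 625 names (0%), and 10 (1.6%) had an unadjusted p under 0.05; DESeq2 called none (0). For miR-98-3p the log2 fold change against WT was -1.34 in R1003Q, -0.997 in R821H and -0.29 in R1855L, and for miR-6886-5p it was -2.11 in R1003Q, -2.54 in R821H and -2.57 in R1855L. For miR-98-5p it was -2.27 in R1003Q, -1.59 in R821H and -1.16 in R1855L. These comparisons share the WT libraries.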

How the data were processed

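Per the labels' protocols, TRIzol-extracted total RNA (100 µg) was made into AQ-seq libraries, which limit ligation bias in small-RNA sequencing, and sequenced on a NovaSeq. Per the submitters' processing notes the tools were cutadapt, BWA and bedtools, with hg38 and mm10 as builds. Their versions and roles and the miRNA annotation release were not given in the sources used here. The deposited tables hold estimated counts, 1 value per mature miRNA name in each library, without normalisation. In each library 19 to 33 names have fractional values. Names absent from a table were set to 0, and counts were rounded to whole numbers for testing. Identical products of several loci share a name, and no source used here names molecular identifiers, so the floors cover counting error only.

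Titles gave the groups and replicate numbers. edgeR 4.0.16 (R 4.3.3) kept 625 of 1818 names by filterByExpr, at least 99.8% of each library, scaled by TMM and fitted 1 robust quasi-likelihood model to all 8 libraries with group alone. Strand ratios were tested with limma 3.58.1 (trend, robust). Names were called at an adjusted p under 0.05 over all names or pairs. Standard errors are the fold change over the root of the F statistic. The scripts were tested on simulated data: edgeR made 2 false calls among 99, DESeq2 1 among 88 and limma 0 among 14 in the comparison of R1003Q with WT. The simulated counts were drawn independently, without the shift along GC between the WT libraries. These rates of recovery and false calls may therefore not hold for the real libraries. Members and lists were chosen with earlier results of these data known. The rule for named miRNAs took the 10 largest and 10 smallest fold changes among names of at least 50 CPM whose groups do not overlap, the 10 most abundant in WT, the most abundant member of each list, and 5 and 5 strand ratios whose groups do not overlap; the miR-590 ratio and both miR-98 strands were added because earlier results named them. Between substitutions it took the 5 largest and 5 smallest called at a mean of at least 50 CPM. The depth classes were split at the widest gap between log totals. Positions are from GENCODE 29 (GRCh38) and sequences from RefSeq (GRCh38.p14). Figures used matplotlib 3.10.9 (Python 3.11.15).

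Alternatives were DESeq2 1.42.0, median-ratio factors, library totals, no filter, a filter of 50 CPM, the 4 libraries compared, a replicate block, a depth class term, a log2 total covariate, each library left out, a pseudocount of 5 and a minimum of 400 reads.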

Additional observations from a re-analysis of the deposited data

How the results depend on the processing

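Between R1003Q and WT the count of 0 called names was 0 under every setting tried except the depth class term, which gave 2. For strand ratios it was 0 except with the log2 total covariate, which gave 4, all toward 5p (miR-18a, miR-3613, miR-590 and miR-92b). Replicate numbers did not pair the R1003Q libraries with those of other groups. Same-numbered deviations correlated at 0.089 between R1003Q and WT, 0.02 between R1003Q and R1855L and -0.119 between R1003Q and R821H. Among the other groups they were strongly related, at -0.701 between WT and R1855L, -0.685 between WT and R821H and 0.569 between R1855L and R821H. The deep library was replicate 2 in WT and replicate 1 in R1855L and R821H. The cause of these correlations was not tested. With the number as a replicate block, 0 names and 0 ratios were called between R1003Q and WT, 13 names between R1003Q and R1855L and 0 between R1003Q and R821H. Crossing the pairing of R1003Q and R821H, chosen after seeing the data, gave 1 call. The 23 calls against R1855L became 38 with DESeq2, 13 with only the 4 libraries compared, 11 with library totals, 93 with the depth class term and 81 with the log2 total covariate, and 2 to 16 with a library left out; the cause was not tested beyond the fewer samples of some fits.

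Some fold changes that were not called changed sign. miR-21-5p (-0.02) was 0.41 with the depth class term, 0.51 with the log2 total covariate, 6.23e-05 with library totals and -0.35 to 0.31 with a library left out. miR-27a-3p (0.01) was -0.16 and -0.21 with the 2 depth settings, -0.0356 with DESeq2, -0.0357 with median-ratio factors, -0.0386 with library totals, -0.13 without a filter, -0.0282 at 50 CPM and -0.27 to 0.23 with a library left out. miR-31-5p (0.08) was -0.0741 without a filter and -0.14 to 0.19 with a library left out, and miR-24-3p (0.22) was -0.0634 to 0.44. miR-16-5p (-0.49) was 0.0511 and 0.16 with the 2 depth settings, and miR-320c (0.77) was -0.18 with the log2 total covariate. For all of these the cause was not tested. Of the list medians over all settings, 206 values stayed within the replicate spread and 67 moved beyond it. These moves were uneven between settings. With the depth class term 14 medians moved and 7 stayed, and with the log2 total covariate 15 moved and 6 stayed. Without WT replicate 2, 10 moved and 11 stayed, whereas with DESeq2 1 moved and 20 stayed. Depth limits what could be seen: both R1003Q libraries held about as many reads as WT replicate 1 or fewer.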
